A study of Mus musculus with 2 samples.

Results

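The genes described here are the single-copy members of the let-7 microRNA family, Mirlet7b, Mirlet7d, Mirlet7e, Mirlet7g and Mirlet7i, with their close relative Mir98. They were taken by symbol as the let-7 genes without a numbered copy, and make up 6 of the 2202 microRNA genes counted. All 6 passed the detection minimum of 10 reads in both libraries, as did 389 of the 2202 genes. The samples were 2 small-RNA libraries of mouse hippocampus (the tissue label names a layer of it), from adult males aged 8 to 10 months with the strain label 5xFAD/CAST. 5xFAD mice are transgenic, with transgenes under the neuronal Thy1 promoter, and serve as an Alzheimer disease model, whereas CAST mice derive from wild ones. The labels do not spell out how the strains were combined, and the genotype they give is shared by both libraries. The libraries form 1 group with no control, so no effect of genotype or age could be tested. They are numbered as biological replicates 1 and 2, with a tissue record each and 1 donor record between them. Whether the tissues came from separate animals is not settled by these records, and the spread between the libraries may be technical.

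let-7 was found in Caenorhabditis elegans as a regulator of developmental timing, and its sequence is nearly the same across animals. The mature 5′ strand is loaded into an Argonaute protein and represses mRNAs that match its seed, among them those of Hmga2, Ras family genes and Lin28. The RNA-binding protein Lin28 blocks the maturation of let-7 precursors in stem cells and early embryos, and mature let-7 rises as neurons differentiate. In mature brain let-7 microRNAs are abundant.

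The mature 5′ strands, from RefSeq on GRCm38.p6 (the assembly also called mm10), are shown because they define the family and show how little separates its members. Capitals mark the seed, bases 2 to 8 counted from the 5′ end.
let-7b (Mirlet7b): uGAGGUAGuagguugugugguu
let-7g (Mirlet7g): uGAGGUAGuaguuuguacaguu
let-7i (Mirlet7i): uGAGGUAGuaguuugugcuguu
let-7d (Mirlet7d): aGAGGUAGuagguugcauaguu
let-7e (Mirlet7e): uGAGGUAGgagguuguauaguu
miR-98 (Mir98): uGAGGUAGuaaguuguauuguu
let-7a (a relative with numbered copies): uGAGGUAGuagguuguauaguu
let-7c (a relative with numbered copies): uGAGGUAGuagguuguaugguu
let-7f (a relative with numbered copies): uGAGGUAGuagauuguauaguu

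All 6 genes and these 3 relatives carried the same seed, GAGGUAG. Of the 1679 mature microRNA names in the RefSeq table, 11 had it, among them also let-7k and miR-1961. The measured genes whose hairpin holds a mature strand with this seed, 14 in number, held 35.6% of assigned reads in replicate 1 and 33.4% in replicate 2. Multimapping reads, such as those shared by copies of let-7a, let-7c or let-7f, are credited to no gene. These values are therefore not the share of the seed among all microRNA reads. Mir7k, the gene of let-7k, had 0 reads in replicate 1 and 1 in replicate 2, and Mir1961 had 0 in both.

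Outside the seed the members differed at few positions. Counted from 1 at the 5′ end, with the base of let-7a first, let-7e had the single substitution U9G. let-7b had A17G and A19G, let-7d had U1A and U16C, let-7g had G12U and U18C, and miR-98 had G11A and A19U. let-7i lay furthest from let-7a, with G12U, A17G, U18C and A19U. let-7b was 1 base from let-7c and let-7e was 1 base from let-7a, while the closest relative of each of the other 4 lay 2 bases away. No mature strand of the 6 genes was found in the hairpin of another counted gene, and no hairpin shared a stretch of 20 bases with a microRNA gene elsewhere. The treatment of mismatched reads is not stated in the labels or file notes, so the split of reads between let-7b and let-7c, or let-7e and let-7a, is the least certain.

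The 3′ strands, which come from the other arm of the same hairpins, varied more, seed included. They are shown because the counts are per hairpin and cannot tell the arms apart.
let-7b-3p: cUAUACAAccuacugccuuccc
miR-98-3p: cUAUACAAcuuacuacuuuccu
let-7d-3p: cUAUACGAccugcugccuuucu
let-7e-3p: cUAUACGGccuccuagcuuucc
let-7g-3p: aCUGUACAggccacugccuugc
let-7i-3p: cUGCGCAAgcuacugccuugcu
Only let-7b-3p and miR-98-3p of these had a seed in common, UAUACAA, and the other 4 each had their own.

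The stretch between the arms is the part of the precursor that Lin28 binds, in part through the letters GGAG. These stretches are shown for 5 of the genes, with GGAG in capitals wherever it occurs.
Mirlet7g: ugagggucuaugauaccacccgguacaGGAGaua
Mirlet7i: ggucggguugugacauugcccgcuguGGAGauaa
Mirlet7d: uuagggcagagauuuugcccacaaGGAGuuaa
Mirlet7e: gaggaagacacccgaGGAGauca
Mirlet7b: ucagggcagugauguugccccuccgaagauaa
Read on the strand of the RNA, these letters were in 4 of the 5 stretches shown, a count that leaves out Mir98, and Mirlet7b lacked them in the whole hairpin as well. Among 644 RefSeq mouse hairpins with both arms annotated, 52 (8.07%) held GGAG between the arms. A match of letters is a description of sequence and shows no binding, and the lack of a match does not show that binding is absent.

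The 6 genes lie on 6 chromosomes (mm10, GENCODE M21), all transcribed in the direction of an annotated host. Mirlet7b (ENSMUSG00000065564.1) is at chromosome 15, 85707319 to 85707403, within an exon of the noncoding transcript Lncppara. Mirlet7g (ENSMUSG00000065440.1) is at chromosome 9, 106178840 to 106178927, in an intron of Wdr82, which encodes a subunit of a histone methyltransferase complex. Mirlet7i (ENSMUSG00000065406.3) is at chromosome 10, 122985640 to 122985724, within an exon of D630033A02Rik, annotated as a transcribed processed pseudogene. Mirlet7d (ENSMUSG00000065453.1) is at chromosome 13, 48536012 to 48536114, within an exon of the long noncoding RNA 6720427I07Rik. Mirlet7e (ENSMUSG00000105758.1) is at chromosome 17, 17830352 to 17830444, in an intron of Spaca6, a gene needed for sperm to fuse with the egg. Mir98 (ENSMUSG00000065536.2) is at chromosome X, 151913214 to 151913321, in an intron of Huwe1, which encodes a ubiquitin ligase. Mirlet7g and Mirlet7i have no other microRNA gene within 10 kb, and the other 4 sit in clusters.

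Together the 6 genes held 35.1% of the reads assigned to microRNA genes in replicate 1 (1200773 reads, exact 95% interval 35.04 to 35.14) and 32.8% in replicate 2 (925451 reads, 32.76 to 32.87), or 34.0% ± 1.61 (SD, n = 2). These intervals, and those below, are Clopper-Pearson intervals computed from the counts alone and cover counting error only. The counts hold no molecular identifiers, so reads copied from 1 molecule could not be told from separate ones. Most reads were not assigned to any gene, and over all reads of the tables the 6 genes held 12.4% in replicate 1 and 10.8% in replicate 2. In bulk tissue, fewer cells of a type and less RNA per cell cannot be told apart.

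Mirlet7b had the highest count of all 2202 genes in both libraries. let-7b represses the stem-cell receptor Nr2e1 in mouse neural progenitors. Mirlet7b had 404279 reads in replicate 1 and 325540 in replicate 2, which is 118142 and 115421 counts scaled to a total of 1e6 assigned reads (CPM), or 116781 ± 1924 CPM. Its share of assigned reads was 11.8% in replicate 1 (11.78 to 11.85) and 11.5% in replicate 2 (11.50 to 11.58). It was the steadiest of the 6, with an SD of 1.65% of its mean.

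Mirlet7g had 396493 reads in replicate 1 and 260745 in replicate 2, a level of 115867 and 92447 CPM. It ranked 2 of all genes in replicate 1 and 4 in replicate 2. In replicate 1 it was nearly level with Mirlet7b, and in replicate 2 Mirlet7b was 1.25-fold higher, so the order of this pair held in both libraries while their ranges overlapped.

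Mirlet7i, whose mature strand is 2 bases from that of let-7g, was lower than Mirlet7g in both libraries. It had 186140 reads in replicate 1 and 130373 in replicate 2, a level of 54395 and 46224 CPM and rank 5 in both. The ratio of Mirlet7g to Mirlet7i was 2.13 in replicate 1 and 2.00 in replicate 2.

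Mirlet7d varied most. It had 89694 reads in replicate 1 and 125020 in replicate 2, a level of 26211 and 44326 CPM, with an SD of 36.3% of the mean. It was the only one of the 6 with more reads in replicate 2, the library of lower depth. let-7d, like let-7b, is known to repress Nr2e1 in mouse neural progenitors.

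Mirlet7e had 106973 reads in replicate 1 and 72805 in replicate 2, a level of 31261 and 25813 CPM. It therefore ranked above Mirlet7d in replicate 1 and below it in replicate 2, and the ranges of these genes overlapped. Mir98 was far below the others, with 17194 reads in replicate 1 and 10968 in replicate 2, a level of 5025 and 3889 CPM, and ranked 35 of all genes in replicate 1 and 40 in replicate 2. Mirlet7e was 6.22-fold above Mir98 in replicate 1 and 6.64-fold above it in replicate 2.

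By mean CPM the order was Mirlet7b, Mirlet7g, Mirlet7i, Mirlet7d, Mirlet7e and Mir98. Of the 5 neighbouring pairs in this order, Mirlet7b with Mirlet7g and Mirlet7d with Mirlet7e overlapped in range between the libraries, and the other 3 did not. The gap from Mirlet7i to Mirlet7d was narrow in replicate 2, where their ratio was 1.04, against 2.08 in replicate 1. A microRNA read spans a mature strand and not the hairpin, so CPM was not scaled by length for these levels. The hairpins ran from 85 bases (Mirlet7b and Mirlet7i) to 108 bases (Mir98). Divided by hairpin length the order was the same, with means of 137390 CPM per 100 bases for Mirlet7b, 118360 for Mirlet7g, 59188 for Mirlet7i, 34241 for Mirlet7d, 30685 for Mirlet7e and 4127 for Mir98.

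Among all detected genes the next in mean CPM below Mirlet7g was Mir139 (93729 ± 7779 CPM), and the next above Mirlet7i was Mir744 (90534 ± 6151 CPM). Mir127 (29871 ± 841 CPM) fell between Mirlet7d and Mirlet7e, and Mir23b (23271 ± 3941 CPM, which shares sequence with a copy and is uncertain) came next below Mirlet7e. Mir98 stood between Mir320 (4466 ± 620 CPM) and Mir411 (4158 ± 657 CPM, uncertain for the same reason), closer to both than its own SD of 803 CPM. With 2 libraries there is no pattern across samples by which to name genes of like behaviour.

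**Figure D1:**
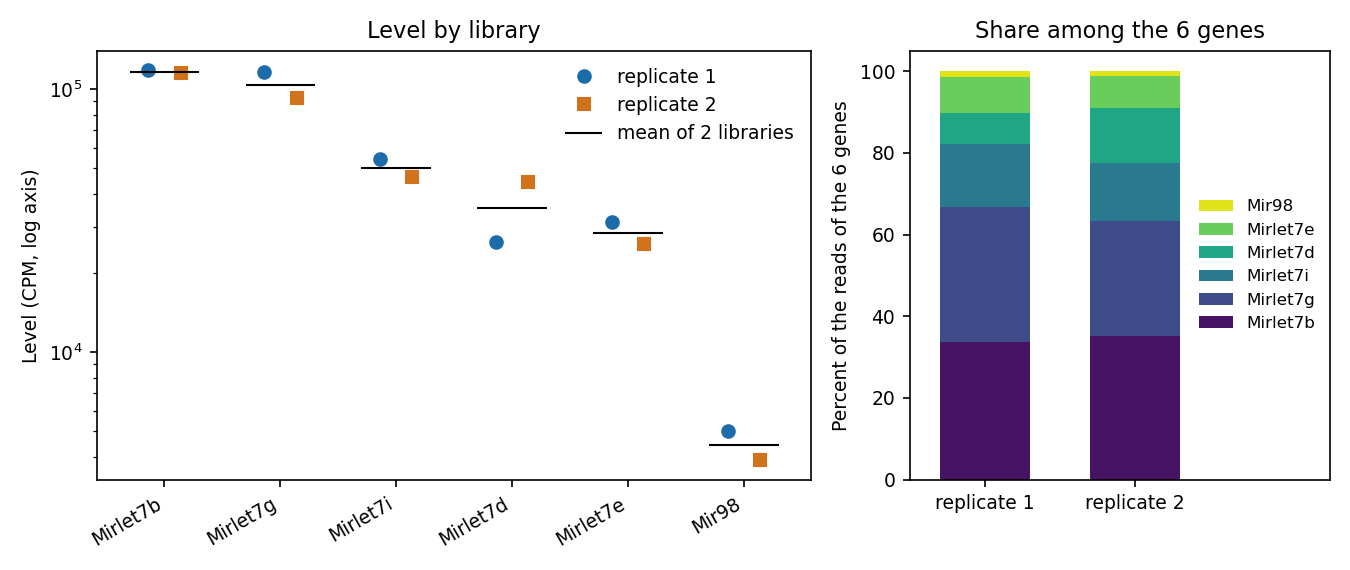
Left, level of each gene in CPM (log axis) in replicate 1 (blue circles) and replicate 2 (orange squares), with the mean as a line. Right, share of each gene in the reads of the 6 genes: Mirlet7d took 7.47% in replicate 1 and 13.5% in replicate 2, Mirlet7g 33.0% and 28.2%, and Mirlet7b 33.7% and 35.2%.

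Ratios between the members within a library do not depend on library scaling. Over the 10 pairs without Mirlet7d, the ratio in replicate 1 was within 1.26-fold of that in replicate 2. The closest were Mirlet7i over Mirlet7e, with a ratio of 1.74 in replicate 1 and 1.79 in replicate 2, and Mirlet7g over Mir98, with 23.1 and 23.8. The 5 pairs with Mirlet7d were 1.73-fold to 2.19-fold apart. Mirlet7b over Mirlet7d was 4.51 in replicate 1 and 2.60 in replicate 2.

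Mirlet7b, Mirlet7d and Mir98 each exceeded their cluster neighbours, all of which have a copy elsewhere, by widely different factors. Mirlet7c-2 lies 621 bases before Mirlet7b and had 4954 reads in replicate 1 and 4254 in replicate 2, so Mirlet7b exceeded it 81.6-fold and 76.5-fold. Before Mirlet7d lie Mirlet7a-1, with 1011 and 710 reads, and Mirlet7f-1, with 846 and 515 reads in replicates 1 and 2. Mirlet7d exceeded Mirlet7a-1 88.7-fold in replicate 1 and 176-fold in replicate 2, and both neighbours were higher in replicate 1 while Mirlet7d was higher in replicate 2. Mirlet7f-2, 785 bases before Mir98, was the closest of these in level, with 8729 and 8111 reads, and Mir98 exceeded it 1.97-fold in replicate 1 and 1.35-fold in replicate 2. These neighbours share sequence with their copies, and multimapping reads are credited to no gene, so the ratios do not give the ratio of the mature microRNAs. Multimapping reads were 3.36 times the reads of the 6 genes in replicate 1 and 3.53 times in replicate 2.

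In the Mirlet7e cluster no gene shares a stretch of 20 bases with a microRNA gene elsewhere. Mir99b, of the miR-99 family known to repress Mtor, lies 94 bases before Mirlet7e, and Mir125a, of a family related to lin-4 of Caenorhabditis elegans, lies 367 bases after it. Mir99b had 25853 reads in replicate 1 and 14549 in replicate 2, and Mir125a had 22058 and 41505. Mirlet7e exceeded Mir99b 4.14-fold in replicate 1 and 5.00-fold in replicate 2, and Mir125a 4.85-fold and 1.75-fold. Mirlet7e and Mir99b were thus higher in replicate 1 and Mir125a in replicate 2, within 1 cluster on 1 strand.

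**Figure D2:**
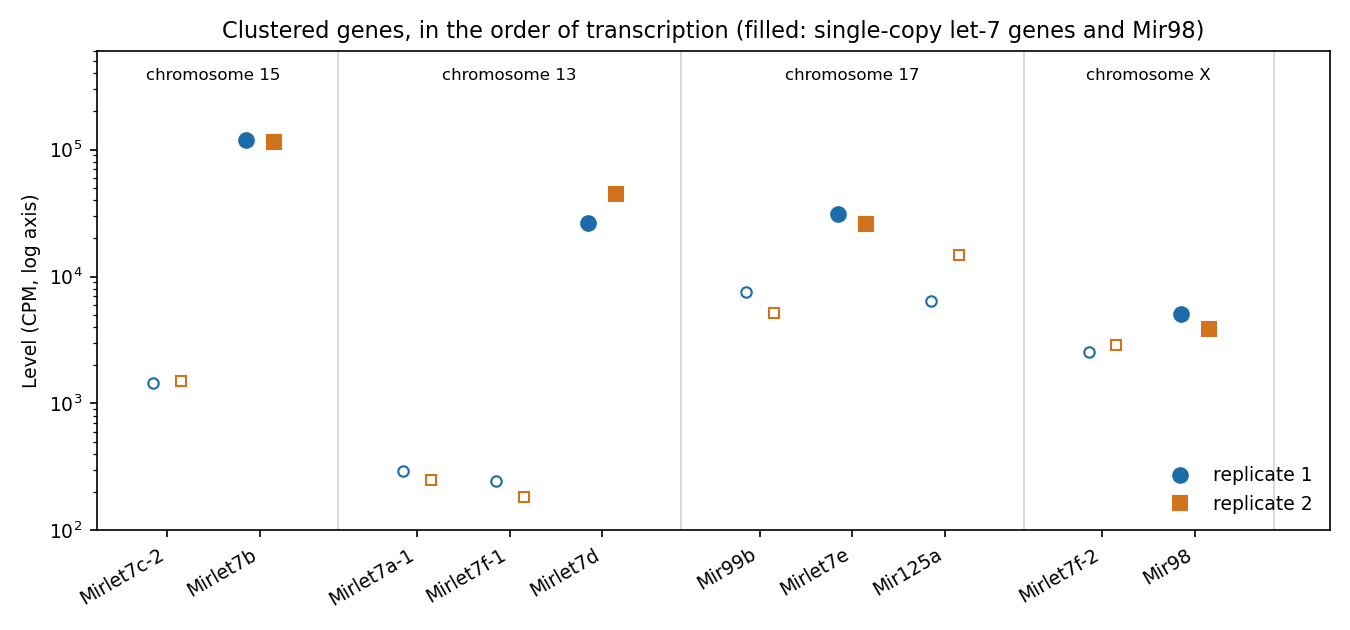
Level in CPM (log axis) of the 4 clustered genes (filled) and of the microRNA genes within 10 kb on the same strand (open), in replicate 1 (blue circles) and replicate 2 (orange squares), in the order of transcription. In CPM Mirlet7d, Mir125a, Mirlet7c-2 and Mirlet7f-2 were higher in replicate 2, and the other 6 genes plotted were higher in replicate 1.

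All 6 genes differed between the libraries beyond counting error. For each gene an exact binomial test, two-sided, set the counts against TMM-scaled library sizes. P-values were adjusted by Benjamini-Hochberg over the 389 detected genes and called under 0.05. The test compares 2 libraries and not conditions or animals. Of all detected genes 67.6% passed it, and of the 40 genes that reached 10000 reads in each library, a depth chosen after the values were seen, 100% passed, so 6 of 6 is what genes of this depth gave in general. Of the 6 genes 5 were higher in replicate 1, against 33.7% of all detected genes and 65% of those 40, and Mirlet7d was higher in replicate 2, as were 33.9% of all detected genes.

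The sizes were modest. The log2 ratio of replicate 1 over replicate 2 was 0.47 for Mir98 (exact 95% interval 0.43 to 0.50; adjusted p = 7.77e-158), 0.42 for Mirlet7g, 0.38 for Mirlet7e, 0.33 for Mirlet7i and 0.13 for Mirlet7b. For Mirlet7d it was -0.66 (-0.67 to -0.65), a level 1.58-fold higher in replicate 2. For the 5 genes other than Mir98 the adjusted p of the binomial test was at or below 1e-300, the smallest value written. Mirlet7b stayed above 0 by a narrower margin on plain library totals, where its log2 ratio was 0.034. The median log2 ratio was 0.35 over the 6 genes, -0.05 over all detected genes and 0.19 over the 40 deep genes. In absolute size the median was 0.40 over the 6 genes, 0.52 over all detected genes and 0.37 over the 40, and 151 of the 389 detected genes, but 6 of the 40, were further from 0 than Mirlet7d.

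Set against the spread between libraries, none of the 6 differences passed. The edgeR exact test used the common biological coefficient of variation of these libraries, 0.41, as its error, which includes the difference under test. By this test the adjusted p was 1 for each of the 6 genes and the lowest unadjusted p among them was 0.44, for Mirlet7d. Of all detected genes 0.514% (2 of 389) passed it, and 23 had an unadjusted p under 0.05. With 2 libraries, failing this test does not show that a gene was equal between them.

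**Figure D3:**
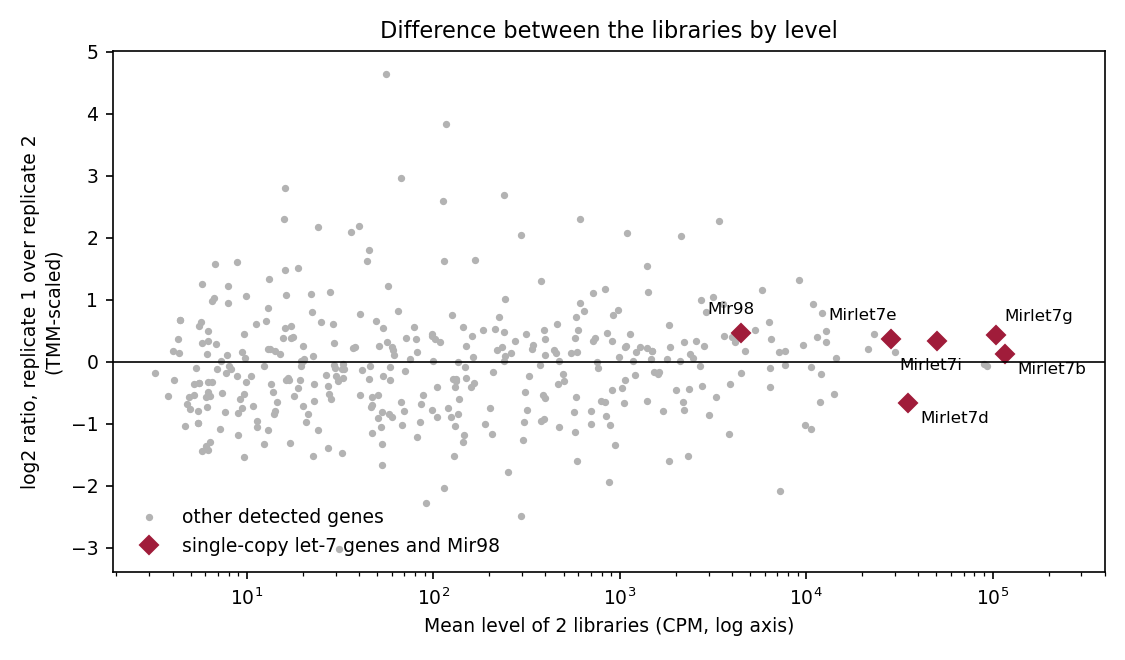
Log2 ratio of replicate 1 over replicate 2 on TMM-scaled counts against mean level in CPM (log axis) for the 389 detected genes, with the 6 genes as red diamonds. Of the 6, 5 lie between 0.13 and 0.47 and Mirlet7d lies at -0.66.

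**Figure D4:**
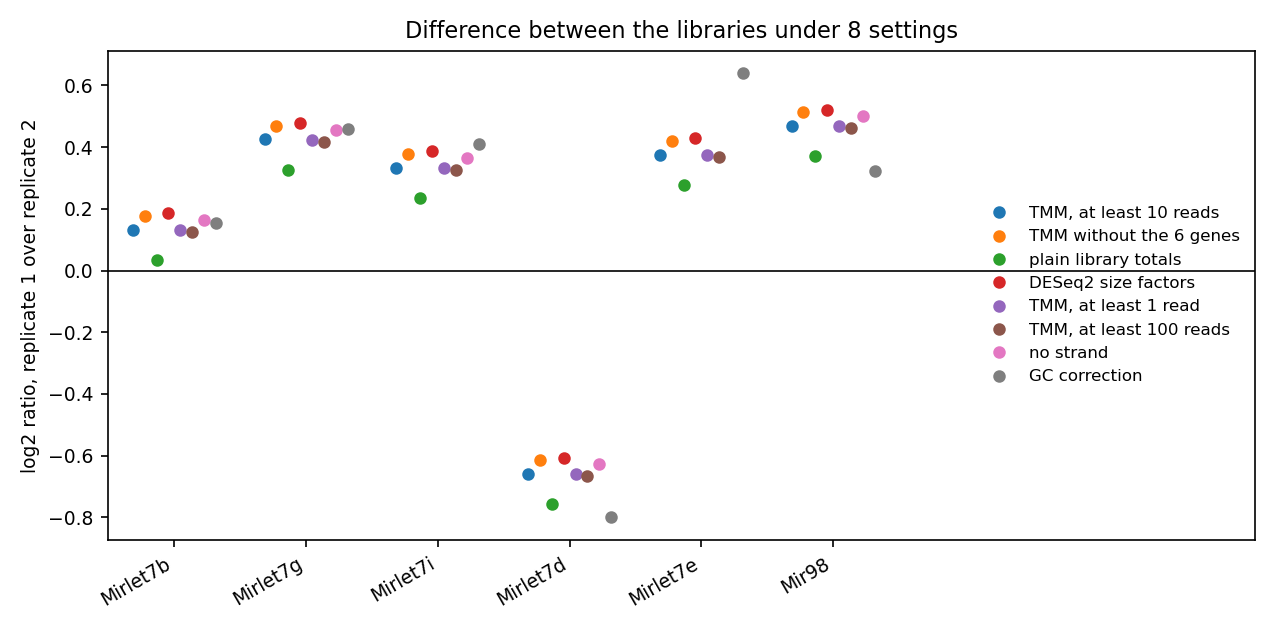
Log2 ratio of replicate 1 over replicate 2 for the 6 genes under 8 settings of scaling, minimum count, strand and GC correction; Mirlet7e has no value without regard to strand. Mirlet7d is below 0 and the other 5 are above 0 under each setting that gave a value, and Mirlet7e lies at 0.64 with the GC correction, against 0.38 without it.

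The sign of each ratio was the same under each of the scalings, minimum counts, strand settings and the GC correction that gave a value. The hairpins of Mirlet7d and Mir98 had low GC contents of 44.7% and 44.4%, and that of Mirlet7e had the highest of the 6, 62.4%. A linear correction for the GC content of the hairpin, which is not that of the reads, took Mirlet7e to 0.64 and Mirlet7d to -0.80. It took Mir98 from 0.47 to 0.32.

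Of the other let-7 family genes on the list used here (Mirlet7a-1, Mirlet7a-2, Mirlet7c-1, Mirlet7c-2, Mirlet7f-1, Mirlet7f-2 and Mir202), 6 of 7 were detected. By the binomial test 2 of these 6 were higher in replicate 1, Mirlet7a-1 (log2 ratio 0.33) and Mirlet7f-1 (0.54). Another 3 were higher in replicate 2, Mirlet7a-2 (-0.41), Mirlet7c-1 (-0.31) and Mirlet7f-2 (-0.074), and Mirlet7c-2 did not pass (0.040, -0.020 to 0.099, adjusted p = 0.243). Mir202 had 1 read in replicate 1 and 4 in replicate 2. It is not among the 14 measured genes with the seed GAGGUAG, whereas Mir7k is among them but was not counted on this list. Together the 7 genes of the list held 0.510% of assigned reads in replicate 1 and 0.558% in replicate 2. The 6 single-copy genes held 68.8 and 58.8 times the reads of these 7. Each of the 6 detected genes of this list shares sequence with copies, and multimapping reads are credited to no gene. Their counts and shares therefore do not give the levels of mature let-7a, let-7c and let-7f. Of the 6 genes of the miR-99, miR-100 and miR-125 families, 5 were higher in replicate 1, from 0.20 for Mir125b-2 (uncertain, as it shares sequence with Mir125b-1) to 0.65 for Mir99b, and Mir125a was higher in replicate 2 (-1.09). By the same test 33.7% of all detected genes were higher in replicate 1 and 33.9% in replicate 2. Among the 40 deep genes 65% were higher in replicate 1.

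The strand column decided whether Mirlet7e was counted at all. Gm25927, an annotated microRNA gene, overlaps Mirlet7e on the opposite strand, from 17830343 to 17830459. In the column that disregards strand Mirlet7e had 0 reads in both libraries, and the ambiguous row of that column held 234489 reads in replicate 1 and 176310 in replicate 2. The Mirlet7e reads would make up 45.6% and 41.3% of those rows. Gm25927 had 0 reads on its own strand. At the other 5 genes the columns differed by at most 3 reads: Mirlet7b had 3 opposite-strand reads in each library, Mir98 had 1 in replicate 1, and Mirlet7d, Mirlet7g and Mirlet7i had 0.

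Markers of several other cell types also held different shares in the libraries, and their part in the differences of the let-7 genes was not tested. Of the 12 neuron markers 8 were detected, and the list held 3.29% of assigned reads in replicate 1 and 3.36% in replicate 2. Of these Mir124a-2 and Mir124a-3, copies of the brain microRNA miR-124, were at 0, though they share sequence with a copy. The detected Mir9, Mir128 and Mir138 copies of this list share sequence with other genes too, so their counts are uncertain. Vascular markers (3 of 3 detected) held 2.17% and 1.32%, choroid plexus and ependyma markers (5 of 7, Mir449b at 0) 0.342% and 0.164%, and epithelial markers (6 of 8) 0.0712% and 0.0111% in replicates 1 and 2. Oligodendrocyte markers (2 of 3) held 0.503% and 0.667%, and microglia and leukocyte markers (5 of 5) 0.498% and 0.427%. Members of a list did not all move alike. Of the neuron markers Mir132, Mir128-1, Mir128-2 and Mir9-1 were higher in replicate 1 (log2 ratio 0.32, 0.16, 0.18 and 1.34). Mir137, Mir138-1 and Mir138-2 were higher in replicate 2 (-0.09, -0.56 and -0.45), and Mir9-3 did not pass. Mir338 was higher in replicate 2 (log2 ratio -0.87) and Mir219a-2 in replicate 1 (0.26). Mir449a was higher in replicate 2 (-0.53), while Mir204, Mir34b and Mir34c of its list were higher in replicate 1 and Mir211 did not pass. Mir143 had 12791 and 5473 CPM in replicates 1 and 2, and Mir126a 7871 and 7464 CPM. Erythroid markers (3 of 3) held 0.0048% and 0.0060%, and striated muscle and liver markers (4 of 10, with Mir1a-1, Mir133a-2 and Mir133b at 0) 0.0068% and 0.0062%, with exact 95% intervals that overlapped between the libraries for each of these last lists.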

How the data were processed

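The deposited tables give raw counts of reads for every microRNA gene, 1 table a library. Their 3 columns ignore strand, take the strand of the gene or take the opposite one, as the values show. Assembly mm10 and GENCODE M21 are named in the text notes deposited beside the tables; aligner, counter and trimming: not given in the sources used here. The column for the strand of the gene was used. The 4 rows that name no gene held 64.8% of reads in replicate 1 and 67.0% in replicate 2 (multimapping reads 41.6% and 38.2%, unmapped reads 16.6% and 22.6%) and were left out. Assigned reads were 3421977 and 2820468, so that a count of 0 allows 0.877 and 1.06 CPM (3 reads). All 2202 gene IDs matched M21. Sequences came from RefSeq (GRCm38.p6), which held all 6 hairpins with M21 coordinates. TMM factors and the edgeR exact test came from edgeR 4.0.16 (R 4.3.3), size factors from DESeq2 1.42.0, and binomial tests from scipy 1.17.1. The binomial test was tried on counts simulated with counting error only, so that trial does not cover the spread between these libraries. Log2 ratios are replicate 1 over replicate 2, with no pseudocount. With 1 group, no quasi-likelihood test of a condition exists. Named genes are the 6 genes, the other family and cluster genes, microRNA genes within 10 kb, and the genes next in mean CPM; Mir7k and Mir1961 were named after their seed match. Members and lists were chosen with earlier results of these data known. The stretch between the arms of Mir98 is not reported here.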

Additional observations from a re-analysis of the deposited data

How the results depend on the processing

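No paired analysis was possible because there was 1 group. The number of the 6 genes that differed between the libraries was 6 by the binomial test under each scaling, minimum count and GC correction tried, 5 without regard to strand, where Mirlet7e had no reads to test, and 0 by the edgeR exact test. The GC correction and the scaling without the 6 genes were added for this count after seeing the data. No ratio changed sign, and the GC correction moved Mirlet7e to a log2 ratio of 0.64. With all reads as the denominator the mean levels in CPM were 39843 for Mirlet7b, 35654 for Mirlet7g, 17204 for Mirlet7i, 11927 for Mirlet7d, 9763 for Mirlet7e and 1526 for Mir98, and the sum of the 6 was 11.6% of all reads; the larger denominator of this measure sets that difference. Without regard to strand Mirlet7b had 124972 CPM and Mirlet7e 0. The reads of Mirlet7b differed by 3 in each library, and its higher CPM came from fewer assigned reads in that column (3187613 in replicate 1 and 2644223 in replicate 2). Either library alone kept the order of the 6 genes, except that Mirlet7e stood above Mirlet7d in replicate 1. The levels in the single libraries ranged from 115421 to 118142 CPM for Mirlet7b and from 26211 to 44326 CPM for Mirlet7d. Depth limits none of the 6 levels, while the number of libraries does. The levels and their order are of reads, and whether reads per molecule were alike for the 6 genes was not tested.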
